A study of Mus musculus with 24 samples.

Results

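Endothelial cells of the normal adult mouse hindbrain were profiled on 8 of the 24 arrays of the series, and all 8 arrays labelled as such were used. They came from wild type (normal) mice of a mixed strain background. The other 16 arrays held endothelial cells from mouse medulloblastomas, 8 from Shh tumours (Ptch+/-; Ink4c-/- mice) and 8 from Wnt tumours, whose genotype combined Blbp-Cre with a Ctnnb1 +/Exon3 flox allele, Trp53 flox/flox and Pik3ca +/flox. All tissues were dissociated with papain, and cells carrying Cd105 (endoglin, Eng) or Cd144 (VE-cadherin, Cdh5) were pulled out with magnetic beads, a positive selection that can carry other cells along. Hindbrain replicates were called biological, but the labels gave no sex, exact age, pooling of animals or processing date. The sample codes of hindbrain and tumour arrays did not interleave, so that any processing order tied to them cannot be told apart from the tissue. Each array measured biotin-labelled cRNA with short DNA probes, and all values below are the deposited log2 signals.

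Brain endothelium forms the blood-brain barrier. Its cells are sealed to each other by tight junctions, keep few vesicles and no pores, carry glucose and amino acids inward with dedicated transporters and pump lipophilic compounds back into blood with ATP-driven exporters. Canonical Wnt signalling in the endothelial cell installs and maintains this state, and pericytes that sit in the same basement membrane help to hold it. A profile of cells selected from normal hindbrain shows which carrier, receptor and regulator genes give RNA signal when no tumour is present. It measures no protein, and RNA of co-isolated cells is part of it.

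Spike-in control probe sets against ERCC sequences, which are no mouse genes, gave the background. Over the 8 hindbrain arrays the means of the 92 ERCC probe sets ran from 2.38 to 7.71 with a median of 3.96. Their 95th percentile, 5.30, was taken as the limit of background. Whether any ERCC RNA had been added to the samples was not given in the sources used here. Of 22180 genes with a probe set of their own, 16281 (73.4%) had a hindbrain mean above background, and 15058 (67.9%) lay above it on all 8 arrays. Another 4845 genes lay above it on none. Signal depends on each probe set's own sequence, so the order of signals given below is an order of brightness and not of RNA molecules. Means are given ± SD over the 8 hindbrain arrays, and their precision rests on that number of arrays.

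Arrays are named by the replicate number in their labels, which carries no order. The 8 hindbrain arrays resembled each other closely, with Pearson correlations over all genes between 0.976 and 0.994 for the 28 pairs. The median SD of a gene above background was 0.17. Array 6 lay farthest from the others, its median absolute difference from their mean being 0.185, while the other 7 hindbrain arrays lay between 0.112 and 0.155. Arrays 1, 5 and 8 carried high signals of choroid plexus genes. Arrays 4 and 6 carried both Xist, which is transcribed from an inactive X chromosome, and genes of the Y chromosome. The median SD was 0.157 without array 6, 0.157 without arrays 1, 5 and 8, and 0.152 without arrays 4 and 6. Results that rest on these arrays are given with and without them.

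The hindbrain arrays deviated from the mean of their group by 0.136 ± 0.024, against 0.160 ± 0.022 for Shh tumour arrays and 0.163 ± 0.022 for Wnt tumour arrays (SD, n = 8 each). Neither difference passed the threshold, with an adjusted p of 0.0535 for each comparison in two-sided permutation tests over arrays. Each deviation was measured from the other arrays of the group, so the 8 values of a group are not independent. All p-values of this comparison are therefore approximate. Both passed it with quantile normalization, at an adjusted p of 0.0267, and once all array medians had been made equal, at 0.0308. Over genes above background in mean neither did, with an adjusted p of 0.123 against Shh and 0.0786 against Wnt tumour arrays.

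The brightest named genes in hindbrain endothelium included barrier transporters, housekeeping RNAs, and immediate-early and heat shock genes. Ribosomal protein genes, genes with provisional names (such as Gm, Rik or LOC) and probe sets without a gene symbol were passed over in naming them. Slc2a1, the glucose transporter GLUT1, lay between 13.40 and 13.52 with a median of 13.45 on the log2 scale. Its SD was 0.036. Of its 2 probe sets the brighter was used, and their mean was 10.54, so that the probe sets of this gene disagree in level. Bsg, basigin, the chaperone of monocarboxylate transporters, averaged 13.21 ± 0.051. Slc7a5, the light chain of the large neutral amino acid carrier, averaged 12.91 ± 0.08. Pltp, the phospholipid transfer protein, and Spock2, a secreted proteoglycan, averaged 13.06 ± 0.10 and 13.15 ± 0.11. Igfbp7, a secreted binding protein found in vessel walls, averaged 13.12 ± 0.084. B2m, the invariant chain of MHC class I, averaged 13.61 ± 0.033. Serinc3, a membrane protein, averaged 13.37 ± 0.045, and Cd81, a tetraspanin, averaged 12.90 ± 0.10. Beside them stood the small nuclear RNA Rn7sk at 13.74 ± 0.078, the mitochondrially encoded ND4 at 13.63 ± 0.061, COX1 at 13.58 ± 0.091 and CYTB at 13.49 ± 0.063, the elongation factor Eef1a1 at 12.90 ± 0.079 and the filament protein Vim at 12.87 ± 0.053. Jun, Hspa1a and the chemokine Ccl3 also belonged to the brightest named genes and are taken up with the immediate-early and heat shock genes. The pericyte gene Rgs5 was among them too, at 12.90 ± 0.22.

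Sorted by the gene lists used here, the 100 brightest genes held 9 genes of the mitochondrial genome, 5 ribosomal protein genes, 6 endothelial markers, 8 transporters, 11 immediate-early, heat shock or interferon genes and 5 genes of co-isolated cell types, and 46 fell in no list.

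All 20 endothelial markers were above background on all 8 arrays and none was among the 5% of genes with the largest SD. Both selection antigens were bright, but the sort was on them, so their level is no finding. Eng lay between 12.70 and 12.92 with a median of 12.85, and Cdh5 lay between 12.70 and 12.99 with a median of 12.81. Ptprb, the phosphatase VE-PTP that restrains Tie2 and VE-cadherin, averaged 12.82 ± 0.10. Cd34, a sialomucin, averaged 12.65 ± 0.11, and Emcn, endomucin, averaged 12.58 ± 0.082. Flt1, the VEGF receptor that binds ligand most tightly, averaged 12.46 ± 0.046 with arrays from 12.37 to 12.52. The adhesion protein Esam averaged 12.07 ± 0.12, Egfl7, a secreted endothelial protein, 11.39 ± 0.16, and Pecam1 11.20 ± 0.11. Nos3, the endothelial nitric oxide synthase, averaged 11.10 ± 0.19. Mmrn2 and Robo4 averaged 11.33 ± 0.21 and 11.08 ± 0.19. The list mean ran from 11.09 to 11.45 over the arrays, lowest in array 6 and highest in array 8. Of the 20, the dimmest signal was that of Icam2, at 8.57 ± 0.074.

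Promoters of Cd34 and Emcn are shown because both genes gave bright, even signals in all 8 arrays and both windows contain CAGGAAG, a form of the GGAA core read by ETS factors. The sequences are those of RefSeq on GRCm38.p6, from 250 bases before to 50 after the annotated start, and the first start listed per gene was used. The motif, searched on both strands, stands in capitals.
Cd34 (chr1:194938571-194938870, plus strand): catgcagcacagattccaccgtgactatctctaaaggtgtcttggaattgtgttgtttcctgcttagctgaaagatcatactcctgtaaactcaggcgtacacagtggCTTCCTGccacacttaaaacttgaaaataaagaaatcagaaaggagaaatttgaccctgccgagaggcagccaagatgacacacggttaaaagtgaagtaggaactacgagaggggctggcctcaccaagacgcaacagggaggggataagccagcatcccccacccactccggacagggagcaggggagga
Emcn (chr3:137340828-137341127, plus strand): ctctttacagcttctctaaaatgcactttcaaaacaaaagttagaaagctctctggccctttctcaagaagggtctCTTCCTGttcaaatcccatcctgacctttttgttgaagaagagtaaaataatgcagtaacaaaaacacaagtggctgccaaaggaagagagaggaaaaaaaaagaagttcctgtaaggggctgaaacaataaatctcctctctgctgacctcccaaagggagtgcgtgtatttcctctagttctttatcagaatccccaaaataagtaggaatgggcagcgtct
With the annotated start at 0, the motif began at position -142 in Cd34 and -174 in Emcn. Of the 20 endothelial markers 10 had a promoter entry and 4 of these, Emcn, Cd34, Robo4 and Egfl7, held the motif, while it was present in 12.96% of all 27025 promoter entries. A match describes letters in a window and shows no binding.

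Transporters were detected almost throughout: of 84 listed genes 78 were measured, and 76 lay above background on all 8 arrays (97.4%, against 67.9% of all genes). The exceptions were the organic anion transporter Slco1a5, with a mean of 5.14 ± 0.33, and Fabp4, a fatty acid binding protein of peripheral vessels, with 4.41 ± 0.32. Of the 76 above background in mean, 5 were among the genes with the largest SD (6.58%, against 5% of all genes by construction).

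Carriers of energy substrates and vitamins gave bright signals. Slc16a1, the lactate and ketone carrier MCT1, averaged 12.15 ± 0.31 and ran from 11.57 to 12.48, with array 2 lowest. Slc19a3, a thiamine carrier, averaged 11.42 ± 0.14. Slc16a4, a further member of the monocarboxylate family, averaged 11.14 ± 0.21, and Slc25a5, the mitochondrial ADP/ATP carrier, 11.78 ± 0.057. Flvcr2, a choline carrier of brain vessels, averaged 10.96 ± 0.16. Slc2a3, the neuronal glucose transporter GLUT3, averaged 6.87 ± 0.13.

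Amino acid carriers followed. Slc3a2, the heavy chain that partners Slc7a5, averaged 12.70 ± 0.071, and its arrays ran from 12.59 to 12.82. Slc6a6, the taurine transporter, averaged 12.61 ± 0.085. The system N glutamine carrier Slc38a3 averaged 12.23 ± 0.10, and Slc38a2 11.75 ± 0.29. Slc7a1, which takes up cationic amino acids, averaged 11.46 ± 0.12, and Slc1a1, a glutamate carrier, 11.45 ± 0.079. The list's most variable members were Slc7a3, with 8.07 ± 0.77 and arrays from 6.52 to 8.93, and Slc7a2, with 7.33 ± 0.46.

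Among carriers of organic anions and nucleosides, Slco1c1, which carries thyroxine, averaged 12.83 ± 0.078. Slc22a8, the organic anion transporter OAT3, averaged 12.49 ± 0.13, and Slco1a4 12.32 ± 0.26. Slco2b1 and the nucleoside carriers Slc29a3 and Slc29a1 averaged 10.95 ± 0.14, 10.26 ± 0.30 and 9.10 ± 0.12. Slco2a1, a prostaglandin carrier, was among the variable genes at 7.48 ± 0.44.

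The ATP-driven exporters were led by Abcb1a, P-glycoprotein, which lay between 12.29 and 12.63 with a median of 12.42. Abcc4, an exporter of organic anions, averaged 10.97 ± 0.17, and Abcg2, the breast cancer resistance protein, 10.38 ± 0.13. The lipid exporters Abca3 and Abca1 averaged 9.79 ± 0.11 and 9.38 ± 0.23. Abcb1b, the second rodent P-glycoprotein gene and a close paralogue of Abcb1a, averaged 7.43 ± 0.52 with an SD among the largest 5%. How far the probes of this pair read each other's RNA was not tested.

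Lipid handling genes were less uniform in signal. Mfsd2a, which imports lysophosphatidylcholine and holds vesicle traffic down, lay between 11.93 and 12.27 with a median of 12.10. Scarb1, a receptor for high-density lipoprotein, averaged 11.06 ± 0.12, and the sphingosine-1-phosphate exporter Spns2 9.97 ± 0.053. The fatty acid carriers Slc27a4 and Slc27a1 averaged 8.75 ± 0.10 and 8.68 ± 0.28. Gpihbp1, which holds lipoprotein lipase on capillaries of other organs, averaged 6.05 ± 0.30.

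For metals and ions, Slc40a1, the iron exporter ferroportin, averaged 11.48 ± 0.11, and Tfrc, the transferrin receptor, 11.27 ± 0.16. Slc39a10, a zinc importer, averaged 11.61 ± 0.10 and Atp10a, a lipid flippase, 11.58 ± 0.074. Slc12a2, the Na-K-2Cl cotransporter, averaged 10.33 ± 0.18. Atp1b1, a sodium pump subunit, was the most variable of the list: it stood at 10.76 and 10.91 in arrays 1 and 8, and at or below 9.89 in the other 6. Arrays 1 and 8 were also those with the brightest choroid plexus signals.

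**Figure D1:**
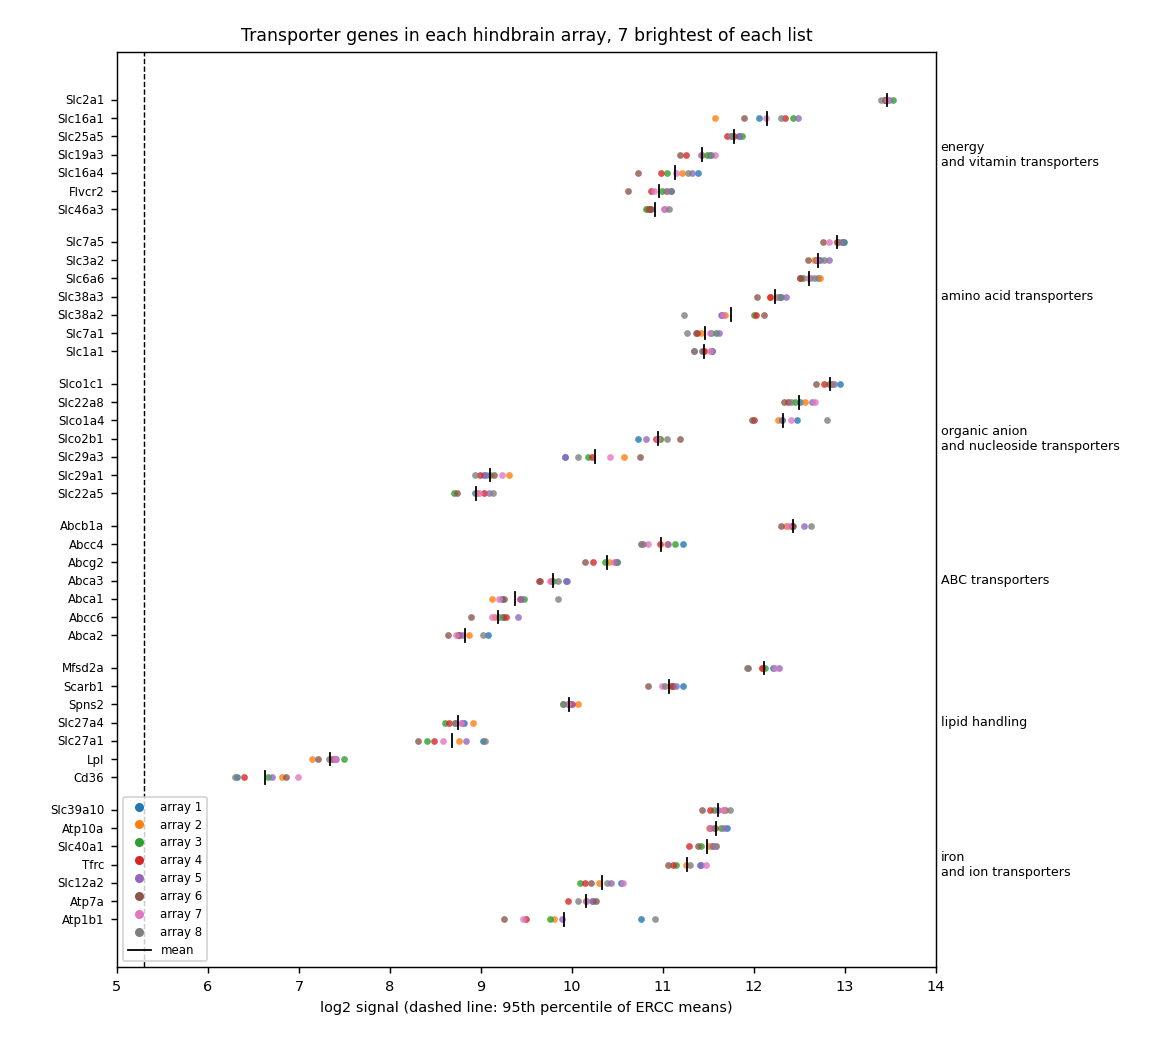
Log2 signal of the 7 brightest members of each transporter list in each of the 8 hindbrain arrays (coloured points), with the mean as a black tick and the background limit as a dashed line. Slc2a1 points lie almost on each other, while those of Atp1b1 fall apart into arrays 1 and 8 and the remaining 6 arrays.

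Junction genes were all measured above background on all 8 arrays, 18 of 18. Cldn5, the claudin that seals brain endothelium, lay between 11.69 and 12.17 with a median of 12.06. Jam2 averaged 12.09 ± 0.13 and F11r, which encodes JAM-A, 11.02 ± 0.13. Ocln, occludin, averaged 11.47 ± 0.065, the scaffold Tjp1 (ZO-1) 11.71 ± 0.05 and Lsr, the angulin of tricellular contacts, 10.53 ± 0.18. Ctnnb1 and Jup, beta-catenin and plakoglobin of adherens junctions, averaged 11.97 ± 0.13 and 10.31 ± 0.062, and Ctnnd1, p120-catenin, averaged 10.57 ± 0.11. Cldn1 averaged 6.74 ± 0.91 and ran from 5.86 to 8.47. Its high arrays were 1, 5 and 8, at 7.73, 6.92 and 8.47, the arrays with high choroid plexus genes, and the part of choroid plexus RNA in these values was not tested. Marveld2, tricellulin, averaged 8.603 ± 0.47 and was the other variable gene of the list.

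Caveola genes were above background apart from the muscle form Cav3, at 5.16 ± 0.13. Cav2 averaged 10.86 ± 0.21, Cav1 8.99 ± 0.15 and the coat proteins Cavin2 and Cavin1 10.31 ± 0.15 and 10.03 ± 0.11. Ehd2, which caps the caveolar neck, averaged 10.82 ± 0.13.

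Genes of leaky or peripheral vessels gave dim signals: the list ran from 4.41 to 8.24 in mean. Of 11 genes 8 were above background on all 8 arrays, near the share of all genes, 67.9%, and 2 had a mean above the highest ERCC mean. Plvap, the diaphragm protein of fenestrae, averaged 6.32 ± 0.35 and ran from 5.72 to 6.74. Aqp1, a water channel also found in choroid plexus epithelium, averaged 6.96 ± 0.79 and stood at 7.96 and 8.41 in arrays 1 and 8. The transcription factor Tcf15 averaged 8.08 ± 0.39 and Cd300lg 8.24 ± 0.33. Meox2 was not above background, at 5.05 ± 0.30. Of the lymphatic list Flt4, VEGF receptor 3, averaged 9.79 ± 0.16, whereas Lyve1, Pdpn and Prox1 averaged 7.25 ± 0.36, 7.13 ± 0.31 and 6.81 ± 0.37.

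**Figure D2:**
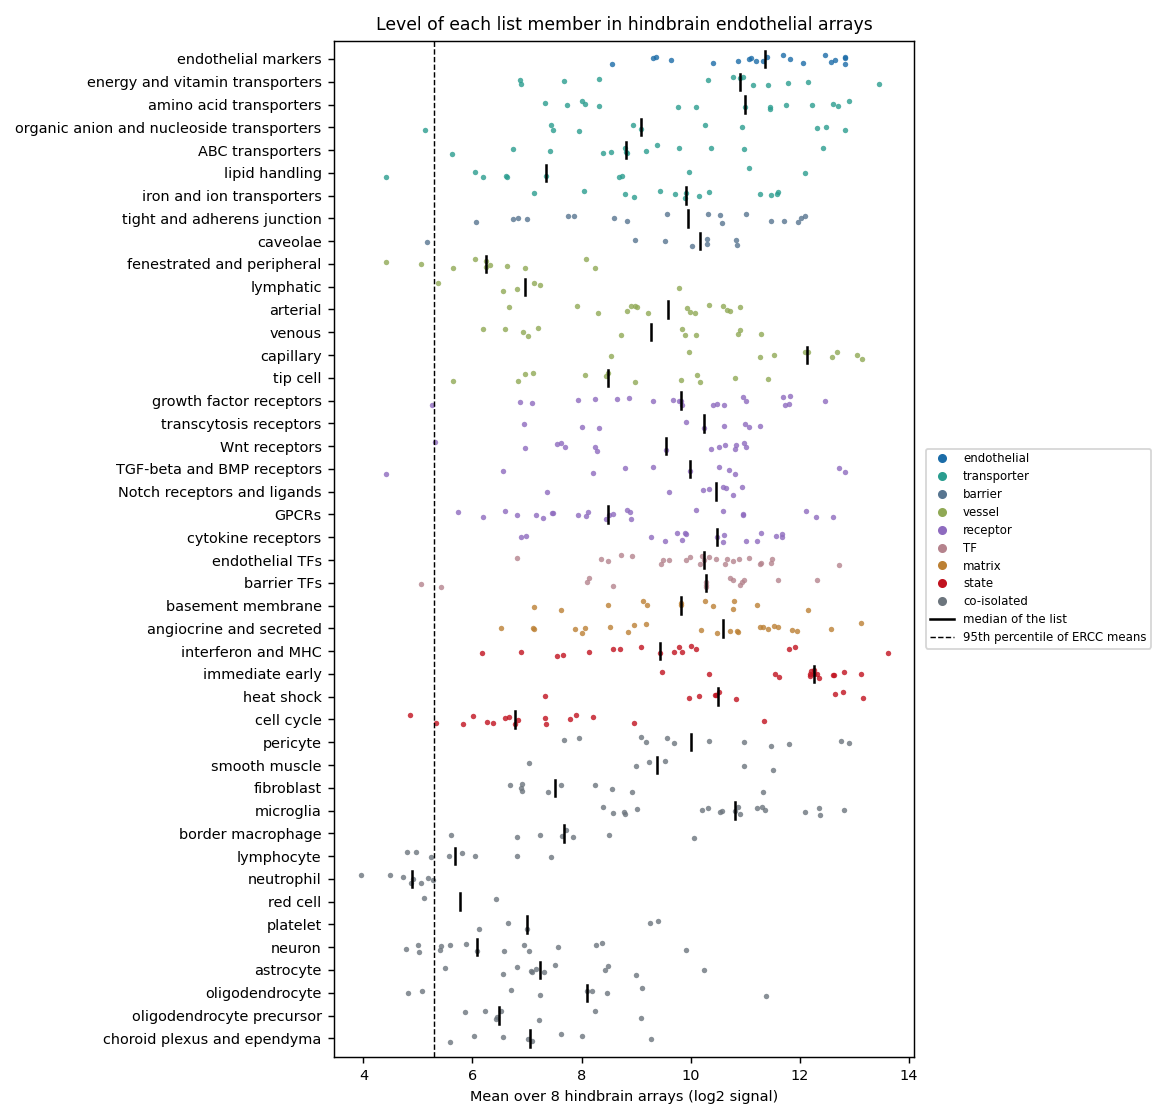
Mean log2 signal over the 8 hindbrain arrays of each measured member of each gene list (points), with the median of the list as a black tick and the background limit as a dashed line. The capillary and immediate-early medians lie above 12, whereas all 8 neutrophil genes lie to the left of the dashed line.

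Receptors were as widely detected as transporters. Of 105 measured genes 102 lay above background on all 8 arrays (97.1%, against 67.9% of all genes). The exceptions were Met, the receptor of hepatocyte growth factor, at 5.27 ± 0.26, Bmpr1b at 4.41 ± 0.31 and Lgr5, an R-spondin receptor, whose mean of 5.30 stood at the limit.

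Growth factor receptors were led by Flt1. Kdr, the main signalling receptor for VEGF, lay between 11.46 and 11.96 with a median of 11.91. Tek, the angiopoietin receptor Tie2, averaged 11.69 ± 0.17, and its partner Tie1 10.42 ± 0.15. Igf1r and Insr, the receptors of insulin-like growth factor and insulin, averaged 11.73 ± 0.10 and 10.62 ± 0.16. Mertk, a receptor for phosphatidylserine ligands, averaged 11.02 ± 0.15 and the VEGF and semaphorin co-receptor Nrp1 10.97 ± 0.16. The most variable of the list was Fgfr2, at 6.87 ± 0.61. Pdgfrb averaged 11.80 ± 0.37 and belongs to pericytes. The mean of this list was lowest in array 6, at 9.46, and 9.69 or more in each other array.

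Of a list of proteins discussed as routes across the barrier, nearly all of them receptors, 9 of 9 measured members were above background. Besides Tfrc, Insr and Scarb1, Lrp1 averaged 10.997 ± 0.075, Lrp8 10.25 ± 0.14, the leptin receptor Lepr 8.33 ± 0.19 and the receptor of advanced glycation products Ager 6.95 ± 0.11. The list also held Basp1, a membrane-attached cytoplasmic protein that is no receptor, which averaged 9.91 ± 0.43 and was variable.

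The parts of the Wnt receptor complex of brain endothelium were each above background on all 8 arrays. Fzd4, the Frizzled receptor of norrin, averaged 10.82 ± 0.11, and Fzd6 11.01 ± 0.14. The co-receptors Lrp6 and Lrp5 averaged 10.64 ± 0.12 and 10.52 ± 0.091. Adgra2 (GPR124) and Reck, which together present Wnt7, averaged 10.82 ± 0.19 and 10.97 ± 0.17. Tspan12, the norrin co-receptor, averaged 9.55 ± 0.13. None of the 15 members was among the variable genes.

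Of the TGF-beta and BMP receptors, Bmpr2 averaged 12.71 ± 0.093, Acvrl1 (ALK1) 10.53 ± 0.13, Tgfbr2 10.81 ± 0.071 and Tgfbr1 10.71 ± 0.37. Notch1, the receptor, averaged 10.94 ± 0.084 and Notch4 10.23 ± 0.14. Its ligands Jag2, Jag1 and Dll4 averaged 10.78 ± 0.17, 10.65 ± 0.11 and 10.59 ± 0.27.

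G protein-coupled receptors with the brightest signals were the adhesion receptors Adgrf5 at 12.60 ± 0.10, Adgrg1 at 12.30 ± 0.088 and Adgrl4 at 12.11 ± 0.18. Calcrl, the receptor for adrenomedullin, averaged 10.95 ± 0.13, and the sphingosine-1-phosphate receptors S1pr3 and S1pr1 averaged 10.96 ± 0.39 and 10.60 ± 0.18. Ptger4, a prostaglandin E2 receptor, varied from 7.28 to 9.58, and P2ry2, a nucleotide receptor, averaged 8.58 ± 0.52. Cytokine receptors were all detected, 17 of 17. Their list mean was highest in array 6, at 10.32, and lowest in arrays 1 and 8, at 9.98 in each. The microglial list mean was also highest in array 6 and lowest in arrays 1 and 8. Which cells gave the cytokine receptor signals was not tested. Ifnar2 averaged 11.68 ± 0.094, Il6st (gp130) 11.68 ± 0.064, Ifnar1 11.57 ± 0.14, Ifngr1 11.28 ± 0.17 and Il10rb 11.21 ± 0.072. Tlr2, a receptor for bacterial lipoproteins that microglia also express, varied from 8.46 to 10.54.

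Transcription factors of endothelium were above background in 25 of 25 cases, and those tied to the barrier in 13 of 15. Epas1 (HIF-2alpha) averaged 12.73 ± 0.11. The ETS factors Fli1, Ets2, Ets1 and Erg averaged 11.48 ± 0.11, 10.89 ± 0.10, 10.66 ± 0.16 and 10.63 ± 0.09. Klf4 and Klf2, which flow induces, averaged 11.48 ± 0.21 and 11.30 ± 0.13. Sox18 and Sox17 averaged 11.26 ± 0.25 and 10.77 ± 0.19, and Gata2 11.06 ± 0.083. Bcl6b, an endothelial repressor, averaged 9.99 ± 0.45 and was the most variable of the endothelial list. Lef1, which partners beta-catenin in Wnt target activation, lay between 11.38 and 11.84 with a median of 11.64. Foxq1 averaged 10.94 ± 0.16, Foxf2 10.29 ± 0.18, Foxc1 10.29 ± 0.18, Ebf1 10.90 ± 0.11 and Tbx3 10.97 ± 0.11. Nkx2-3 averaged 5.43 ± 0.33, near the limit of background. Nr4a1 is also an immediate-early gene and is described with those.

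Genes that mark arterial, capillary and venous segments were all present. Capillary genes had the brightest list median of these segments, 12.13: Car4, a carbonic anhydrase on the capillary surface, averaged 12.60 ± 0.13, Itm2a 12.69 ± 0.14 and the chemokine Cxcl12 11.53 ± 0.14. In the arterial list Alpl, alkaline phosphatase, averaged 10.91 ± 0.14, Edn1, endothelin-1, 10.72 ± 0.18, Mgp, an inhibitor of calcification, 10.67 ± 0.34, and Hey1, a Notch target, 10.34 ± 0.17. Gkn3, a marker of brain arteries, averaged 9.99 ± 0.37. The venous list was led by Icam1 at 11.29 ± 0.74, Vcam1 at 10.91 ± 0.32 and Vwf at 10.87 ± 0.20. It held the most variable vessel genes, 4 of 12 being among the genes with the largest SD. Selp, P-selectin, ran from 5.75 to 8.48, and Icam1 from 10.12 to 12.26. Both adhesion molecules were highest in arrays 3, 4 and 6, with 7.93, 8.48 and 7.60 for Selp and 11.86, 11.97 and 12.26 for Icam1. Tip cell genes were led by Pdgfb, the growth factor that recruits pericytes, at 11.41 ± 0.11, followed by the small GTPase Rhoj at 10.82 ± 0.28 and Mcam at 10.17 ± 0.33. Esm1 averaged 5.64 ± 0.34 and Apln 7.11 ± 0.37, while Plaur, the urokinase receptor, varied from 7.91 to 10.43.

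Basement membrane genes were above background on all 8 arrays, 13 of 13. Sparc, a collagen-binding matrix protein, averaged 12.14 ± 0.10, Lamb2 11.21 ± 0.13, Nid1 10.79 ± 0.31, Agrn 10.78 ± 0.19 and Lamc1 10.42 ± 0.25. The type IV collagen chains Col4a1 and Col4a2 averaged 9.19 ± 0.16 and 9.14 ± 0.15. Secreted factors included Sparcl1 at 12.58 ± 0.17, the protease inhibitor Timp3 at 11.60 ± 0.08 and the matricellular Ccn1 at 11.96 ± 0.31. Plat, tissue plasminogen activator, averaged 11.33 ± 0.10 and Thbd, thrombomodulin, 11.27 ± 0.15. The cytokines Il1a and Il6 averaged 11.85 ± 0.75 and 7.12 ± 1.24.

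Interferon and MHC class I genes were above background in 17 of 17 measured cases. After B2m, the brightest were Ifitm3 at 11.91 ± 0.078 and the class I heavy chain H2-K1 at 11.81 ± 0.16. Usp18 and Irf1 averaged 10.09 ± 0.18 and 10.02 ± 0.43. Genes of the cell cycle gave dim signals, 14 of 17 being above background on all 8 arrays (against 67.9% of all genes) and 16 of 17 in mean (against 73.4%). Pcna, the DNA polymerase clamp, averaged 11.35 ± 0.11, Mcm4 8.95 ± 0.14 and Mki67 6.83 ± 0.40. The mitotic genes Cdk1, Top2a and Bub1 averaged 6.26 ± 0.38, 5.82 ± 0.40 and 5.34 ± 0.35, and Birc5, survivin, was not above background at 4.86 ± 0.29.

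Immediate-early genes, which cells switch on within minutes of stimulation or dissociation, were bright on every array. Jun lay between 12.996 and 13.24 with a median of 13.12, and Dusp1, a phosphatase that shuts off MAP kinases, lay between 12.59 and 13.05 with a median of 12.76. Fosb averaged 12.63 ± 0.35, Zfp36 12.61 ± 0.39, Fos 12.35 ± 0.24 and Nr4a1 12.31 ± 0.52. Of the 15 measured, 4 were among the genes with the largest SD, including Nr4a1 and Egr2, at 10.34 ± 0.50. The list mean was 12.31, 12.38 and 12.36 in arrays 3, 4 and 6, against 11.54 to 11.98 in the other 5. Heat shock genes ran likewise, with list means of 11.18 in array 6, 11.09 in array 3 and 10.32 in array 8. Hspa1a, an inducible HSP70, lay between 12.91 and 13.36 with a median of 13.20, and its near-identical copy Hspa1b averaged 12.65 ± 0.24. Probes for these copies may read both RNAs, so neither value is certain. The constitutive Hspa8 averaged 12.80 ± 0.18, the small heat shock protein Hspb1 10.83 ± 0.18 and the endoplasmic reticulum chaperone Hspa5 10.53 ± 0.20. Hsph1, an HSP110 chaperone, was the most variable at 10.45 ± 0.63, and Dnajb1, an HSP40 co-chaperone, averaged 10.47 ± 0.35. The papain step and the sort were shared by all arrays, and their part in these signals was not tested.

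Promoters of Dusp1, Hspa1a and Hspb1 are shown as examples among the windows of immediate-early and heat shock genes that held the searched motif, again from RefSeq on GRCm38.p6 with the motif in capitals. TGACGTCA is the full cyclic AMP response element, and GAANNTTC is the pair of inverted units on which heat shock factor binds.
Dusp1 (chr17:26508423-26508722, minus strand): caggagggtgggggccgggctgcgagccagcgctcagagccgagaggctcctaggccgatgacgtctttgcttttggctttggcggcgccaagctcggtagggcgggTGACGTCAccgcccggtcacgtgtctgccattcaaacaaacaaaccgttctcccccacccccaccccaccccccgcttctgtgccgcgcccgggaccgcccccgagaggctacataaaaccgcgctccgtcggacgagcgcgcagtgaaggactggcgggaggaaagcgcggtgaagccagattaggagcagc
Hspa1a (chr17:34972107-34972406, minus strand): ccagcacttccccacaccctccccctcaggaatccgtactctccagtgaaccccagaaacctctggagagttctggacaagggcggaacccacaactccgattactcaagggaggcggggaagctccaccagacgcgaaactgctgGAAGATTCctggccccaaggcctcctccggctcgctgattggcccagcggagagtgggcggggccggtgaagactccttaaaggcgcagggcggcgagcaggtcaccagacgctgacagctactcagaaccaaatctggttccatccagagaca
Hspb1 (chr5:135887669-135887968, plus strand): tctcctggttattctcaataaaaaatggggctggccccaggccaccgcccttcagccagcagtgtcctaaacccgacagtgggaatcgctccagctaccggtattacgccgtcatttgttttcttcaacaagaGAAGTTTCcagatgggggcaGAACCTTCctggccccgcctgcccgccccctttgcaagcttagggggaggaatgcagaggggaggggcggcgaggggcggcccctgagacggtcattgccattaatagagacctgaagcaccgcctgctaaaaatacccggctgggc
The motif lay at -143 in Dusp1, at -104 in Hspa1a, and in Hspb1 it stood in 2 places, at -117 and -97. GAANNTTC was found in 5 of the 8 heat shock genes with a promoter entry, Hspa1a, Hspa1b, Hspb1, Hsph1 and Hspe1, and in 7.95% of all entries. TGACGTCA was found in 2 of 13 immediate-early genes, Dusp1 and Btg2, and in 1.88% of all entries. The windows of Hspa1a and Hspa1b were identical at 296 of 300 positions.

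RNA of other cell types was present beside the endothelial signal. Of 128 measured marker genes of 14 such types, 104 lay above background on all 8 arrays (81.3%, against 67.9% of all genes). These markers varied more than the rest: of 111 above background in mean, 34 were among the genes with the largest SD (30.6%, against 5% of all genes). Without arrays 1, 5 and 8 the count was 28, and without array 6 it was 30. In a bulk sample more cells of a type and more RNA per cell cannot be told apart.

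Mural cell genes gave bright signals. Pericyte genes were above background in 12 of 12 cases. Rgs5 ran from 12.50 to 13.12, Vtn, vitronectin, averaged 12.76 ± 0.27, Pdgfrb 11.80 ± 0.37 and Atp13a5 11.47 ± 0.40. Abcc9, a subunit of pericyte potassium channels, averaged 10.97 ± 0.43. The pericyte list mean was 9.61 in array 6 and 9.97 in array 8, against 10.20 to 10.70 in the other 6. Anpep, aminopeptidase N, and Kcnj8, the channel pore that Abcc9 accompanies, were the most variable members and ran from 8.47 to 10.27 and from 8.65 to 10.17. All 6 smooth muscle genes were above background, with Acta2 at 11.51 ± 0.22, Myl9 at 10.97 ± 0.26 and Myh11 at 9.53 ± 0.22. Cnn1, calponin, averaged 7.04 ± 0.54 and was the most variable. Fibroblast genes were dimmer, apart from Dcn, decorin, at 11.34 ± 0.17. Islr averaged 8.93 ± 0.44, Col1a2 7.63 ± 0.28 and Col1a1 7.39 ± 0.15, and 4 of the 10 were among the genes with the largest SD.

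Microglial genes gave bright signals too. All 19 measured microglial genes were above background on all 8 arrays. Selplg lay between 12.56 and 13.10 with a median of 12.84, and Csf1r, the receptor that microglia need to survive, lay between 12.02 and 12.69 with a median of 12.39. C1qb averaged 12.35 ± 0.34, Ctss 12.09 ± 0.33, Tyrobp 11.36 ± 0.36, P2ry12 10.91 ± 0.27 and Tmem119 10.31 ± 0.46. The list mean was highest in array 6, at 11.06, and lowest in array 1, at 10.11. Border macrophage genes gave dimmer signals, with Stab1, also an endothelial gene of other organs, at 10.06 ± 0.057 and Mrc1 at 8.50 ± 0.26. Of the blood cell lists, none of 8 neutrophil genes had a mean above background, the brightest being Ltf at 5.27 ± 0.14. Of 8 lymphocyte genes 5 were above it on all arrays, no larger a share than the 67.9% of all genes. They were led by Cd79b at 7.44 ± 0.22 and Nkg7 at 6.81 ± 0.18, with Cd3d, Cd3g and Ms4a1 not above it. No lymphocyte gene had a mean above the highest ERCC mean, 7.71. Platelet genes were above background in 5 of 5 cases, with Gp9 at 9.41 ± 0.59 and Ppbp at 9.25 ± 0.44. Of the red cell list only 2 of 10 genes were measured by a probe set of their own, the brighter being Slc4a1 at 6.43 ± 0.16.

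Neuronal and glial genes were dimmer and uneven. Stmn2 averaged 9.92 ± 0.22, Snap25, a synaptic fusion protein, 8.37 ± 0.96 and Map2 8.27 ± 0.20, while Nefm, Gabra6 and Slc17a6 were not above background in mean. Gabra6, a GABA receptor subunit of cerebellar granule cells, ran from 3.33 to 6.76. It was above the limit in arrays 1, 3, 4 and 8, at 5.83, 6.06, 6.76 and 5.77. Gja1, the main astrocyte connexin, averaged 10.24 ± 0.32, Aldoc 8.99 ± 0.59, Slc4a4 8.49 ± 0.81 and Aqp4, the water channel of astrocyte endfeet, 7.17 ± 0.70. The astrocyte list mean was 7.98, 7.96 and 7.95 in arrays 1, 3 and 4, against 7.04 and 7.18 in arrays 6 and 7. Of the oligodendrocyte list Mal averaged 11.38 ± 0.045, Mbp, a myelin protein, 9.11 ± 0.42, Mobp 8.47 ± 0.56 and Mag 7.24 ± 0.60, and Opalin and Ermn were not above background. Mal did not share the large SD of Mbp, Mobp and Mag, and which cells gave its signal was not tested.

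Choroid plexus genes split the arrays. Ttr, the transthyretin that choroid plexus epithelium secretes, stood at 12.44, 11.36 and 12.66 in arrays 1, 5 and 8, against 7.61, 6.15, 5.99, 8.94 and 9.04 in arrays 2, 3, 4, 6 and 7. Kl, klotho, stood at 10.66, 9.01 and 10.84 in arrays 1, 5 and 8, against at most 6.91 in the other 5. Clic6 and Otx2 split the same way, with 8.14 and 7.25 in array 1 and 6.24 and 4.98 in array 2. The list mean was 8.36, 7.70 and 8.62 in these 3 arrays, against 6.32 to 6.599 in the other 5. Of 8 measured genes 6 were among those with the largest SD.

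**Figure D3:**
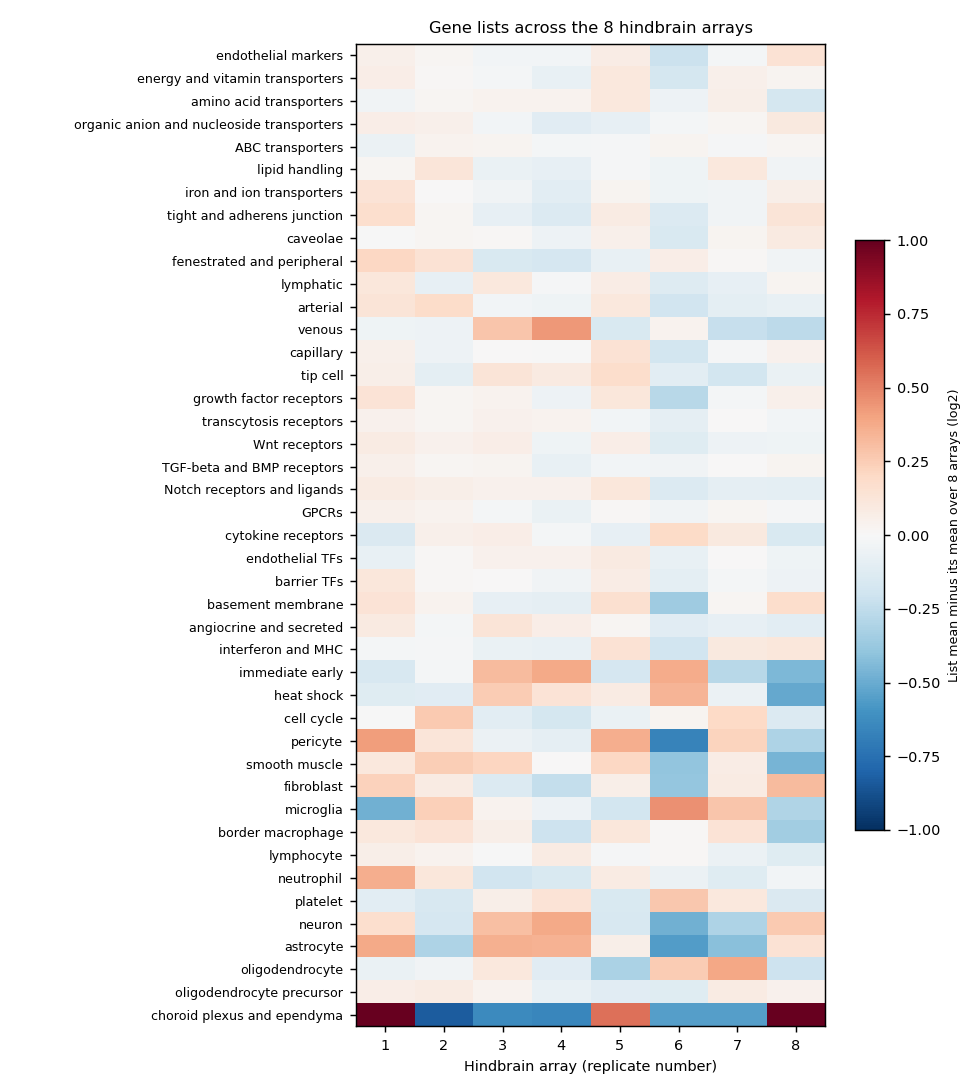
Mean of each gene list with at least 5 measured members in each hindbrain array, minus its mean over the 8 arrays (log2 colour scale, red above and blue below, clipped at -1 and 1). Endothelial, transporter, receptor and transcription factor rows are pale, whereas the choroid plexus row is red in arrays 1, 5 and 8, and array 6 is blue for pericyte, neuron and astrocyte genes.

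The 20 named genes with the largest SD fell into few groups. Xist and the Y-linked Uty, Kdm5d and Eif2s3y had SDs of 3.72, 2.18, 2.04 and 1.88. Xist ran from 12.24 to 12.46 in arrays 1 to 4, stood at 12.15 in array 6 and was at or under 5.26 in arrays 5, 7 and 8. The 3 Y-linked genes were at 4.97 or less in arrays 1 to 3, between 8.53 and 9.13 in arrays 5, 7 and 8, and between 6.65 and 7.47 in arrays 4 and 6. Arrays 4 and 6 therefore carried both kinds, which none of the 16 tumour arrays did: 10 had Xist alone and 6 the Y-linked genes alone.

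A second group followed the choroid plexus genes. Slc4a5, a bicarbonate transporter, stood at 8.95, 7.02 and 9.50 in arrays 1, 5 and 8, against 5.36 to 5.94 elsewhere. Htr2c, a serotonin receptor, Trpm3, a cation channel, and Car12, a carbonic anhydrase, had SDs of 1.64, 1.47 and 1.41 and were highest in array 8, at 9.22, 9.91 and 8.996. Atp2b3, Slc4a10 and Vat1l were also highest in array 8 and next in array 1, at 9.78 and 8.59, 9.26 and 8.67, and 8.90 and 8.32. Array 8 alone was high for Lrrn3, at 11.31 against at most 7.55 elsewhere, and for Gbp2b, an interferon-induced GTPase, at 8.66 against at most 5.23.

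Another group was inflammatory. Gpr84, a receptor for medium-chain fatty acids on activated myeloid cells, stood at 10.93, 11.17 and 11.96 in arrays 3, 4 and 6, against 8.33 to 10.02 in the other 5. Bcl2a1a, a survival gene of myeloid cells, stood at 10.25, 10.01 and 10.97 in the same arrays, against 7.46 to 7.99. Hcar2 was highest in array 6, at 11.29, and Il6 had an SD of 1.24. Tnf and Ccl3 were bright throughout, with Tnf from 10.15 to 12.90 and Ccl3 from 12.35 to 13.48, and both were highest in arrays 3, 4 and 6. Arrays 3, 4 and 6 also had the highest immediate-early list means. Ptprz1, a phosphatase of glia, ran from 4.86 to 8.29 and was lowest in array 6.

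The steadiest named genes were Crebbp, a histone acetyltransferase, Ubqln1, Cnot6l, Mgat1 and Ankrd11, whose SDs lay between 0.02 and 0.023. Crebbp ran from 11.32 to 11.38.

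**Figure D4:**
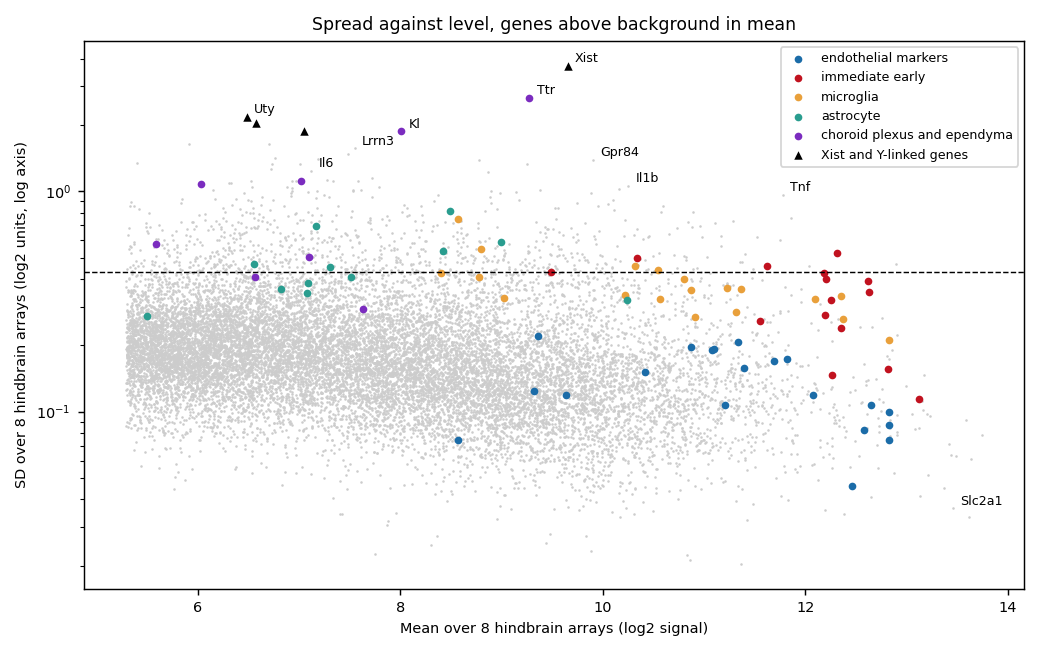
SD over the 8 hindbrain arrays (log axis) against the mean log2 signal of every gene above background in mean (grey points), with 5 lists and the sex-linked genes marked and the limit of the largest 5% of SDs as a dashed line. All 20 endothelial markers lie below the dashed line, while 6 of 8 choroid plexus and ependyma genes lie above it.

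Whether other lists varied together with the endothelial markers was asked over the 8 arrays, for 42 lists in 1 family, with two-sided exact permutation of pairings and members shared with the endothelial list removed. The choroid plexus list was left out since its arrays fall apart into separate clusters. Pearson's r passed the adjusted threshold for 6 lists and Spearman's rho for 2, while 13 lists had an unadjusted p under 0.05 by r. With quantile normalization 4 of the 6 passed by r, the junction and caveola lists being lost, and after the median shift only basement membrane did. The basement membrane mean rose with the endothelial mean (r = 0.97, permutation p = 2.48e-05, adjusted p = 0.00104). By rank the relation was rho = 1, with an exact permutation p of 4.96e-05 and an adjusted p of 0.00208. The junction list gave r = 0.81 (exact permutation p = 0.00583, adjusted 0.0408) and rho = 0.93 (exact p = 0.00223, adjusted 0.0469). Caveolae and fibroblast lists gave r of 0.93 and 0.88 with adjusted exact permutation p of 0.0233 and 0.0219, and rho of 0.83 and 0.86 with adjusted p of 0.0807 and 0.0807. Cytokine receptor and platelet lists ran against the endothelial mean, with r of -0.88 and -0.88, rho of -0.81 and -0.81, and adjusted exact permutation p of 0.0219 and 0.0219 by r and of 0.0831 and 0.0831 by rho.

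Arrays 6 and 8 lay farthest from the median endothelial mean. Without both, r was 0.95 for basement membrane, 0.88 for junctions, -0.86 for platelets, -0.74 for cytokine receptors, 0.67 for fibroblasts and 0.50 for caveolae. Without array 6 alone no list passed the threshold by r and 1 by rho, the adjusted permutation p of basement membrane being 0.208 at r = 0.90. With any other single array left out basement membrane passed, at adjusted permutation p from 0.00417 to 0.00833. The number of lists passing by r then ran from 2 without array 4 to 11 without array 8, and junctions were among them only without array 1. Pericyte and microglial lists did not pass, with r of 0.56 and -0.77 and adjusted exact permutation p of 0.346 and 0.074.

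Set against the mean of the Shh and Wnt groups, which the same model compared over all genes, 4792 of 22180 genes were higher in hindbrain (21.6%) and 5031 lower (22.7%) at an adjusted p under 0.05. At least 2-fold differences were called for 802 and 1091 genes. Against Shh tumours alone 18.9% were higher and 18.9% lower, and against Wnt tumours alone 22% and 23.2%, from the same hindbrain arrays. Of all called genes 48.8% were higher in hindbrain, or 53.9% with quantile normalization. When each array was shifted to the same median, the median difference of all genes moved by 0.101 and the share higher became 66.9%, so that small differences, and which direction held more genes, depend on the scaling. For 718 genes (3.24%) all 8 hindbrain arrays lay above all 16 tumour arrays, and for 811 (3.66%) below. Tissue, genotype and tumour cannot be told apart in this comparison.

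Of the 20 endothelial markers 14 were higher in hindbrain than in the tumour mean and 1 lower, with a median difference of 0.42, and the count of those higher was 8 without arrays 1, 5 and 8. The counts by tumour group, whose difference was not tested, were as follows: against Shh tumours alone 3 were higher and 3 lower (median difference 0.054), and against Wnt tumours alone 18 and 0 (median difference 0.89). Flt1 lay between 12.37 and 12.52 (median 12.46) in hindbrain arrays, against 11.09 to 11.97 (median 11.59) in Shh tumour arrays and 9.54 to 11.30 (median 10.56) in Wnt tumour arrays, a difference of 1.45 ± 0.16 (SE), adjusted p = 7.41e-08. Cdh5, a selection antigen, averaged 12.82 ± 0.087 in hindbrain, against 12.89 ± 0.14 in Shh and 12.41 ± 0.35 in Wnt tumour arrays. Its difference from the tumour mean did not pass (difference 0.17 ± 0.094 (SE), adjusted p = 0.149) except when each array was shifted to the same median. Of the 2 selection antigens 1, Eng, was higher than the tumour mean. Against Shh tumours alone neither was called, and against Wnt tumours alone 2 were higher.

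Capillary genes were mostly higher than the tumour mean, and transporters went both ways. Of the capillary list 9 of 10 were higher and none lower (median difference 1.28). Of the 10, against Shh tumours alone 4 were higher and 1 lower (median difference 0.56), and against Wnt tumours alone 10 and 0 (median difference 2.12). Slc2a1 lay between 13.40 and 13.52 (median 13.45) in hindbrain arrays, against 12.95 to 13.50 (median 13.30) in Shh tumour arrays and 11.26 to 13.18 (median 11.98) in Wnt tumour arrays, a difference of 0.80 ± 0.16 (SE), adjusted p = 0.000255. Slc22a8 lay between 12.33 and 12.67 (median 12.47) in hindbrain arrays, against 11.18 to 12.31 (median 11.98) in Shh tumour arrays and 6.29 to 8.94 (median 7.65) in Wnt tumour arrays, a difference of 2.76 ± 0.26 (SE), adjusted p = 3.91e-09. Car4 differed by 2.62 and Tfrc by 2.13, both past the threshold. Of all 78 transporter genes 35 were higher and 25 lower, against Shh tumours alone 16 and 19, and against Wnt tumours alone 38 and 26. Of the energy and vitamin carriers 8 of 13 were higher and 2 lower than the tumour mean, but 3 and 2 against Shh tumours alone. Amino acid carriers were higher in 7 of 15 cases and lower in 4, organic anion and nucleoside carriers in 6 of 11 and 5, ABC transporters in 7 of 14 and 3, and iron and ion transporters in 4 of 14 and 5. The last count was 2 or 3 when any of hindbrain arrays 2, 3, 4, 6 or 7 was left out, and 2 after the median shift. Against Shh tumours alone, 3 amino acid carriers were higher and 5 lower, and 2 and 2 organic anion and nucleoside carriers. For ABC transporters these counts were 5 and 3, and for iron and ion transporters 3 and 2. Against Wnt tumours alone the 4 lists gave 8 and 4, 6 and 5, 8 and 3, and 6 and 5, in the same order. Of lipid handling genes 3 of 11 were higher and 6 lower. Junction genes were higher in 10 of 18 cases and lower in 4, or 1 lower without arrays 4 and 6. Fabp5, a fatty acid binding protein, lay between 5.88 and 6.59 (median 6.15) in hindbrain arrays, against 8.61 to 10.71 (median 9.84) in Shh tumour arrays and 11.48 to 12.53 (median 12.08) in Wnt tumour arrays, without overlap (difference -4.68 ± 0.19 (SE), adjusted p = 4.15e-15). Slco2a1 was lower by a difference of -3.06.

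Arterial genes were higher in 9 of 16 cases and lower in 1. Smooth muscle genes, which mark the mural cells of arteries, moved with them, 5 of 6 being higher and none lower (median difference 1.11): their list mean ran from 9.09 to 9.80 in hindbrain, against 7.63 to 8.37 in Shh and 8.27 to 9.20 in Wnt tumour arrays. Their part in the arterial values was not tested. Gkn3 lay between 9.28 and 10.43 (median 10.07) in hindbrain arrays, against 4.84 to 6.96 (median 5.61) in Shh tumour arrays and 4.89 to 5.73 (median 5.24) in Wnt tumour arrays, a difference of 4.48 ± 0.20 (SE), adjusted p = 1.28e-14, and hindbrain arrays overlapped no tumour array. Endothelial transcription factors were higher in 15 of 25 cases and lower in 2, or 1 lower without arrays 1, 5 and 8, and barrier factors in 9 of 15 and 3. Against Shh tumours alone 11 endothelial factors were higher and 2 lower, and 4 and 2 barrier factors. Against Wnt tumours alone these counts were 18 and 2, and 9 and 3. Klf4 differed by 2.09, Foxq1 by 1.77 and Sox17 by 1.70, all past the threshold, and Prox1 by -1.76 in the other direction. Among growth factor receptors 6 of 22 were higher and 6 lower.

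Most members of the tip cell, cell cycle, basement membrane and peripheral vessel lists were lower in hindbrain than in the tumour mean. Which cells of the samples gave this RNA, tumour cells among them, was not tested. Of the tip cell list 11 of 13 were lower and 1 higher, or 2 higher without array 8 (median difference -1.64). Apln, the ligand of the apelin receptor, lay between 6.59 and 7.63 (median 7.11) in hindbrain arrays, against 11.38 to 12.01 (median 11.71) in Shh tumour arrays and 7.88 to 10.27 (median 8.94) in Wnt tumour arrays, a difference of -3.21 ± 0.21 (SE), adjusted p = 7.35e-12. The cell cycle list was lower in 16 of 17 cases and higher in 1, Pcna (median difference -2.12). Pcna averaged 11.35 ± 0.11 in hindbrain, against 11.20 ± 0.30 in Shh and 11.02 ± 0.21 in Wnt tumour arrays (difference 0.24 ± 0.094 (SE), adjusted p = 0.0432). Its call was lost with quantile normalization, without any of hindbrain arrays 1 to 7, without Shh arrays 4, 5 or 6, without Wnt arrays 3, 4, 5, 6 or 8, and without hindbrain arrays 1, 5 and 8 or 4 and 6 together. Ccna2, cyclin A2, lay between 6.15 and 6.78 (median 6.38) in hindbrain arrays, against 9.04 to 10.97 (median 10.21) in Shh tumour arrays and 8.98 to 10.47 (median 9.95) in Wnt tumour arrays, a difference of -3.63 ± 0.20 (SE), adjusted p = 4.79e-13. Basement membrane genes were lower in 9 of 13 cases and higher in 2, with Lamb1 differing by -3.32. Plvap lay between 5.72 and 6.74 (median 6.27) in hindbrain arrays, against 5.98 to 8.78 (median 7.30) in Shh tumour arrays and 9.58 to 11.59 (median 10.34) in Wnt tumour arrays, a difference of -2.56 ± 0.30 (SE), adjusted p = 1.36e-07. Of its list, the peripheral vessel genes, 7 of 11 were lower than the tumour mean and 2 higher. Against Shh tumours alone 5 were lower and 3 higher, and against Wnt tumours alone 8 and 2.

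State genes and RNA of other cells moved as well. Immediate-early genes were higher in 15 of 15 cases (median difference 1.17), and heat shock genes in 10 of 10 (median difference 1.43). Hspa1b lay between 12.17 and 12.88 (median 12.68) in hindbrain arrays, against 6.92 to 11.12 (median 8.77) in Shh tumour arrays and 7.90 to 11.63 (median 10.59) in Wnt tumour arrays, a difference of 3.13 ± 0.50 (SE), adjusted p = 1.15e-05. Interferon and MHC genes were higher in 14 of 17 cases and lower in 0, or 1 with array weights and without Shh array 2. Microglial genes were higher in 18 of 19 cases (median difference 1.82), the list mean running from 10.11 to 11.06 in hindbrain, against 7.47 to 9.80 in Shh and 7.30 to 9.005 in Wnt tumour arrays. Siglech, a lectin of microglia, lay between 10.25 and 11.37 (median 10.81) in hindbrain arrays, against 5.65 to 6.65 (median 6.02) in Shh tumour arrays and 5.85 to 8.23 (median 6.85) in Wnt tumour arrays, a difference of 4.39 ± 0.23 (SE), adjusted p = 2.62e-13. Pericyte genes were higher in 5 of 12 cases and lower in none: against Shh tumours alone 2 were higher and 1 lower (median difference 0.16), and against Wnt tumours alone 7 and 0 (median difference 0.50). Platelet genes were higher in 5 of 5 cases and oligodendrocyte genes in 7 of 9, with 1 lower, while fibroblast genes were lower in 7 of 10 cases and higher in 1, a count that ran from 0 to 2 over the alternatives. Choroid plexus and ependyma genes were higher in 6 of 8 cases, or 3 without arrays 1, 5 and 8, and lower in 2, and of astrocyte genes 2 of 12 were higher and 5 lower. The part of these cells in the differences of shared genes was not tested.

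Among genes whose hindbrain arrays overlapped no tumour array, the largest positive differences belonged to Il1a at 4.50, Gkn3, Siglech, the fructose carrier Slc2a5 at 4.14, Sgpp2, a sphingosine-1-phosphate phosphatase, at 4.11, Slc26a10 at 3.78, Tecrl at 3.65 and Tnf at 3.63. Il1a, Slc2a5, Siglech and Tnf are genes of microglia or other myeloid cells as well. Sgpp2 lay between 11.40 and 11.92 (median 11.68) in hindbrain arrays, against 8.32 to 9.40 (median 8.66) in Shh tumour arrays and 5.88 to 7.14 (median 6.42) in Wnt tumour arrays, a difference of 4.11 ± 0.15 (SE), adjusted p = 3.01e-16. The largest negative differences belonged to the linker histone H1f5 at -4.87, Fabp5, the macrophage glycoprotein Gpnmb at -4.53, the matrix protein Postn at -4.08, the Slit receptor Robo1 at -3.95, the core histone H2bc12 at -3.92, Lrrn1 at -3.89 and the prion-like Prnd at -3.64. Of the genes altered in the tumour models, Ptch1 averaged 9.40 ± 0.27 in hindbrain, against 9.26 ± 0.43 in Shh and 9.47 ± 0.59 in Wnt tumour arrays, Cdkn2c, which encodes Ink4c, 7.23 ± 0.41 in hindbrain, against 7.76 ± 0.28 in Shh and 8.95 ± 0.51 in Wnt tumour arrays, and Pik3ca 9.97 ± 0.15 in hindbrain, against 10.06 ± 0.11 in Shh and 9.98 ± 0.11 in Wnt tumour arrays. Cdkn2c was lower in hindbrain than in the tumour mean by -1.13 ± 0.17 (SE), adjusted p = 5.01e-06, and the array's probe set need not lie in the deleted exons.

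**Figure D5:**
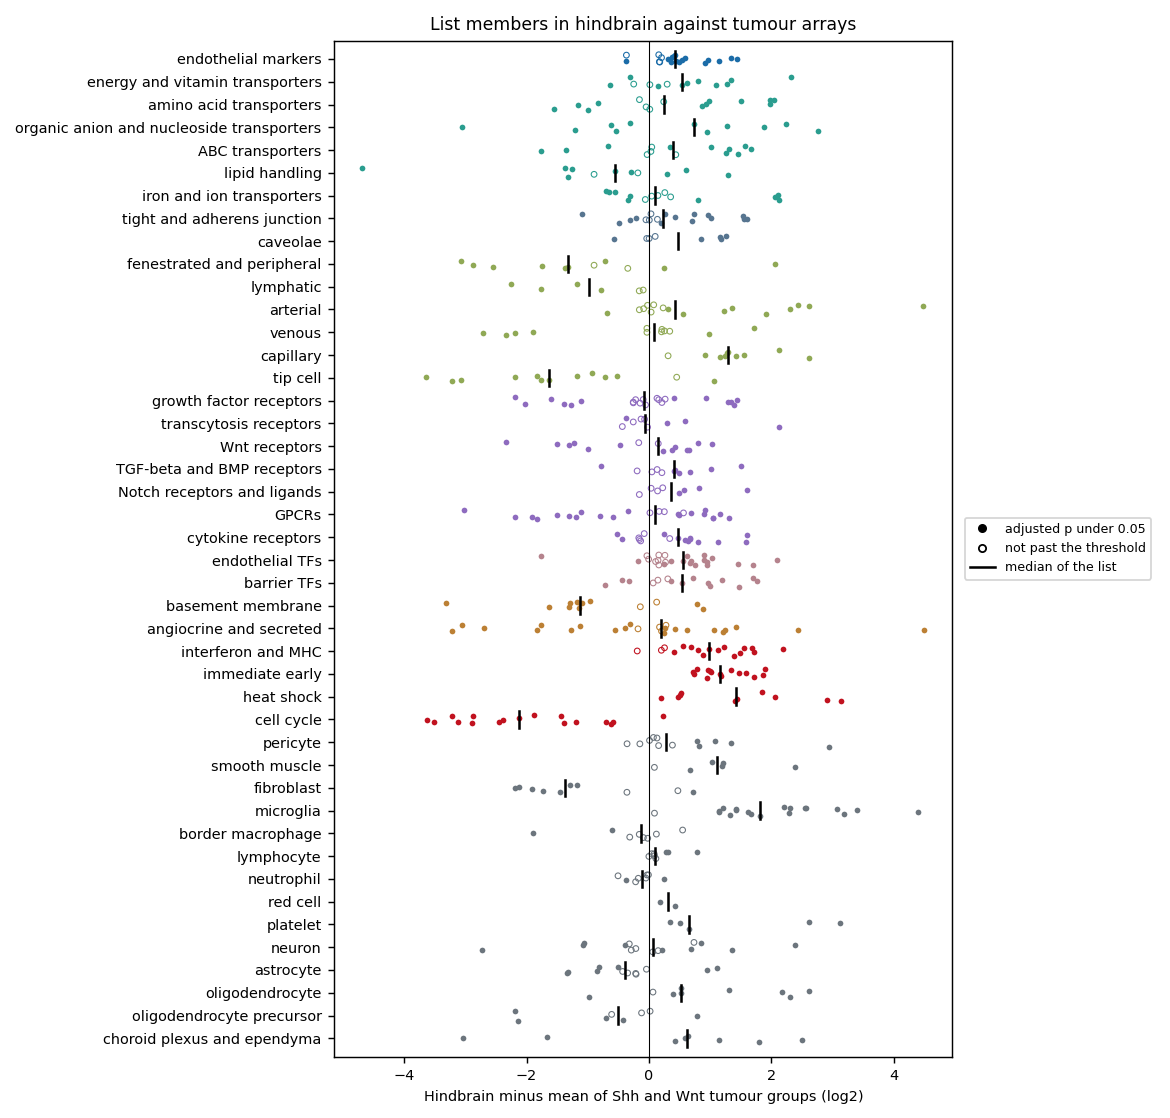
Hindbrain minus the mean of the Shh and Wnt tumour groups (log2) for each measured member of each list, filled where the adjusted p was under 0.05 and open otherwise, with the median of the list as a black tick. Microglia, immediate-early, heat shock and capillary members lie to the right of 0, while all cell cycle members but Pcna and 11 of 13 tip cell members lie to the left.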

How the data were processed

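The 8 hindbrain arrays of 24 were described from log2 signals that the authors deposited, 1 value per probe set and array. The submitters' processing notes name Partek 6.6 without a role. Summarisation, normalization and genome build were not given in the sources used here. Of 41345 probe sets, 190 were controls, 23521 had 1 gene symbol in the platform annotation, 1814 several and 15820 none, and 23328 of the 23521 (99.2%) matched a RefSeq gene. The brightest single-symbol probe set by the mean over 24 arrays stood for each of 22180 genes. No value was filtered or rescaled.

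Groups came from the sample titles. Background, SD and list means were computed in Python 3.11.15 with pandas 2.3.3, and the comparison with tumours with limma 3.58.1 in R 4.3.3 on the deposited log2 values over all 24 arrays, with Benjamini-Hochberg adjustment over all genes at 0.05. All differences are hindbrain minus tumours. The limma step was tested on simulated data of 22180 genes: it recovered 39, 48, 50 and 50 of 50 genes made to differ by 0.5, 1, 1.5 and 2 (log2), with 6 false calls. Same-numbered arrays of different groups correlated between -0.15 and 0.28 in their deviations. Differently numbered arrays were not set beside them, so this does not settle whether the numbers pair the arrays. The main model treated them as unpaired. Alternatives were quantile normalization, median shifts, mean probe sets, other backgrounds, variance trend, array weights, a replicate block and leaving out arrays.

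Named genes were the 25 brightest, the 20 with the largest and 5 with the smallest SD, from each list the 5 brightest, the 2 with the largest SD, those not above background and the 2 largest called differences each way, the 8 largest non-overlapping differences each way, and a short list of barrier and tumour model genes. The brightest genes, those with the largest or smallest SD and the non-overlapping ones were named with ribosomal protein and provisional names passed over. Not all genes that the rule names are printed, and other list members are named where they complete a family. Trp53 was not analysed here. Members and the 45 lists (561 entries) were chosen with earlier results of these data known. Alternatives without arrays 1, 5 and 8, without 4 and 6, and correlations with arrays left out were chosen after seeing the data.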

Additional observations from a re-analysis of the deposited data

Results flagged for a closer look

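For each list mean and each named gene, the highest or lowest of the 8 arrays of a group was set against the group's range, and a value was singled out where its gap to the nearest other array exceeded 0.526 of that range (Dixon's limit for 8 arrays). Of 421 such tests 26 were singled out, while chance gives about 1 in 20, so that a single such value carries little weight. Some genes were named for their SD in these same arrays, and genes can vary together within an array. The tests are therefore not independent, and several values from 1 array are not separate findings.

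Array 6 gave 12 of the 23 values singled out among hindbrain arrays. Its growth factor receptor list mean was 9.46, against 9.69 in the next lowest array. Barrier and capillary genes were also lowest there: Cldn5 stood at 11.69 with the next array at 11.96, Car4 at 12.31, Flvcr2 at 10.61, Cxcl12 at 11.24, Igf1r at 11.51 and Lrp8 at 9.95. Matrix and pericyte genes did likewise, with Nid1 at 10.10, Col4a1 at 8.82, Col1a1 at 7.08 and the pericyte channel gene Kcnj8 at 8.65. Ifitm3 stood at 11.73. The microglial list mean was highest in the same array, and whether its lower endothelial signals follow from other RNA in the sample was not tested.

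Array 8 was alone in high Lrrn3 (11.31) and high Gbp2b (8.66), and lowest for Dnajb1 (9.67), Lyve1 (6.47) and Pcna (11.11). Array 7 was highest for the myelin gene Mobp (9.69) and for the red cell gene Slc4a1 (6.78), and lowest for Crebbp (11.32), whose arrays lie within a very narrow range. Array 2 was lowest for the mitochondrial COX1 (13.37), array 5 for Gpihbp1 (5.37) and array 1 for Prox1 (6.04). Among tumour values Siglech was highest in Shh array 2 (6.65), Tecrl in Wnt array 4 (6.17), and Slc26a10 was lowest in Wnt array 1 (5.66).

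Probe sets without a gene symbol were not part of any comparison. Of 15820 such probe sets 7212 (45.6%) lay above background on all 8 hindbrain arrays, as did 1132 of the 1814 with several symbols. They are unnamed here and were not analysed further.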

How the results depend on the processing

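With the highest ERCC mean in place of the 95th percentile as background, 6878 genes instead of 15058 lay above it on all 8 arrays. The median SD ran from 0.157 to 0.174 when each hindbrain array was left out in turn, and was 0.157 without arrays 1, 5 and 8 and 0.152 without arrays 4 and 6, where fewer arrays enter. Of the correlations with the endothelial mean, 4 lists passed with quantile normalization and 1 when each array was shifted to the same median, against 6 as reported, and between 0 and 11 when each hindbrain array was left out in turn. Without array 6 the lowest adjusted permutation p was 0.208. Hindbrain arrays deviated less than tumour arrays with an adjusted p of 0.0267 after quantile normalization (differences -0.029 from Shh and -0.026 from Wnt) and 0.0308 after the median shift (-0.034 and -0.028), but not over genes above background in mean (adjusted p 0.123 and 0.0786). The median shift also gave 7577 genes higher in hindbrain in place of 4792, and the balance of called genes turned with the scaling: 48.8% were higher as reported, 53.9% with quantile normalization and 66.9% with the median shift. A replicate block gave 4688 higher and 4964 lower, within 1.5 times the counts reported. The deviations of same-numbered arrays correlated between -0.15 and 0.28. The differences of 36 genes printed in the comparison with tumours were repeated 1188 times in all under these settings, and none that was called changed sign. Of these repeats 1169 stayed on their side of the threshold. The exceptions were Cdh5, which passed at 0.27 after the median shift, and 18 repeats in which Pcna no longer passed. The cause of these changes was not tested. Probe sets above background by little, such as those of Lgr5 and Nkx2-3, cannot be told from background on every array.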
